A study of Mus musculus with 12 samples.

Results

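The nuclear genes of the mitochondrial respiratory chain and ATP synthase were followed by complex in chronic proximal thoracic aortic aneurysms (cPTAA) and sham-operated aortas of the mouse. Members were taken by symbol: every gene whose name starts with Ndufa, Ndufb, Ndufc, Ndufs, Ndufv, Uqcr or Atp5, or with Cox, a digit from 4 to 8 and a letter, together with Sdha, Sdhb, Sdhc, Sdhd and Cyc1. The rule found 108 of the 30130 listed genes. Of these, 53 belong by name to complex I, 4 to complex II, 9 to complex III, 20 to complex IV and 22 to complex V, the ATP synthase. Because the rule reads names, it also takes 8 Ndufaf genes, which encode assembly factors of complex I, and 10 genes whose symbols mark them as pseudogenes. A gene was tested when 5 or more libraries held it at 1 or above, which was the case for 105 members and not for Atp5l-ps2, Cox7b2 and Ndufb11b.

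The 7 cPTAA libraries (numbered 2, 3, 4, 6, 7, 9 and 12) came from aneurysms raised by elastase placed around the proximal thoracic aorta together with BAPN, a lysyl oxidase inhibitor. The 5 sham libraries (1, 5, 8, 10 and 11) came from proximal thoracic aortas of mice that had sham surgery and normal water, and their values are given below in that order. All mice were male, of a strain the labels spell C56BL/6J, and their age and the time of harvest are not stated in the sources used here. The groups differ in enzyme, inhibitor and operation at once, so effects of these cannot be told apart, and both hold whole tissue. Depth ran from 14078885 to 17493428 reads, of which 103039 to 503219 per library fell on members. The labels do not say that each library is a separate animal, and p-values refer to the spread among libraries, which may be technical.

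Electrons from NADH enter the chain at complex I and those from succinate at complex II. Both pass them on ubiquinone to complex III, which hands them to cytochrome c, and complex IV passes them to oxygen. Complexes I, III and IV pump protons, and complex V uses the gradient to make ATP. Most subunits are nuclear genes, some with separate isoforms in heart, muscle and brown fat. Brown fat surrounds the mouse thoracic aorta and is among the tissues richest in mitochondria.

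Respiratory chain genes were lower in cPTAA in all 5 complexes. The members together took 1.34 ± 0.726% of reads in cPTAA libraries (SD, n = 7, range 0.676 to 2.88%) and 2.60 ± 0.489% in sham libraries (SD, n = 5, range 1.88 to 2.96%). By limma on log2(normalised read count + 1), with p-values adjusted over all 21415 tested genes, 64 of the 105 tested members fell, where 11.1% of all genes fell. No member rose, where 12.9% of all genes rose. At an unadjusted p under 0.05, 85 members were lower and 2 higher, where 3816 and 3838 of the 21415 tested genes were. The median log2 fold change (cPTAA minus sham) was -1.13 over the members and -0.05 over all tested genes. Below 0 were 101 of the 105 members and 11458 of the 21415 tested genes. On the recovered reads, edgeR's quasi-likelihood test called 41 members lower and 1 higher, against 14.3% and 16.6% of all genes. DESeq2 called 56 lower and 2 higher, against 11.8% and 14.7%. The higher calls were Atp5g1 with both tools and Cox6a2 with DESeq2. Leaving out sham 10 or sham 11 left 36 members called lower by limma, and leaving out sham 1 left 38.

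By complex, limma called lower 32 of 52 tested genes of complex I, 4 of 4 of complex II, 9 of 9 of complex III, 13 of 19 of complex IV and 6 of 21 of complex V. The median log2 fold changes were -1.05 for complex I, -1.30 for complex II, -1.43 for complex III, -1.24 for complex IV and -0.84 for complex V. With edgeR the counts were 18, 3, 7, 8 and 5, and with DESeq2 26, 4, 9, 11 and 6, in that order of complexes. Complexes II and III were thus called in whole by limma and DESeq2, while 15 complex V genes, 4 of them pseudogene-named, were not called by limma. Complexes II and III hold subunits only. Complexes I and IV also count copies and pseudogene-named genes, and complex I its assembly factors, so the shares are of unlike sets. The complex I count was 15 to 18 without cPTAA 2, 3 or 4 or sham 1, 10 or 11, complex IV was 8 without sham 1, 10 or 11, and complex V was 3 without 1 of the same 3 sham libraries and 14 without cPTAA 9. Whether the complexes differ from each other was not tested.

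**Figure D1:**
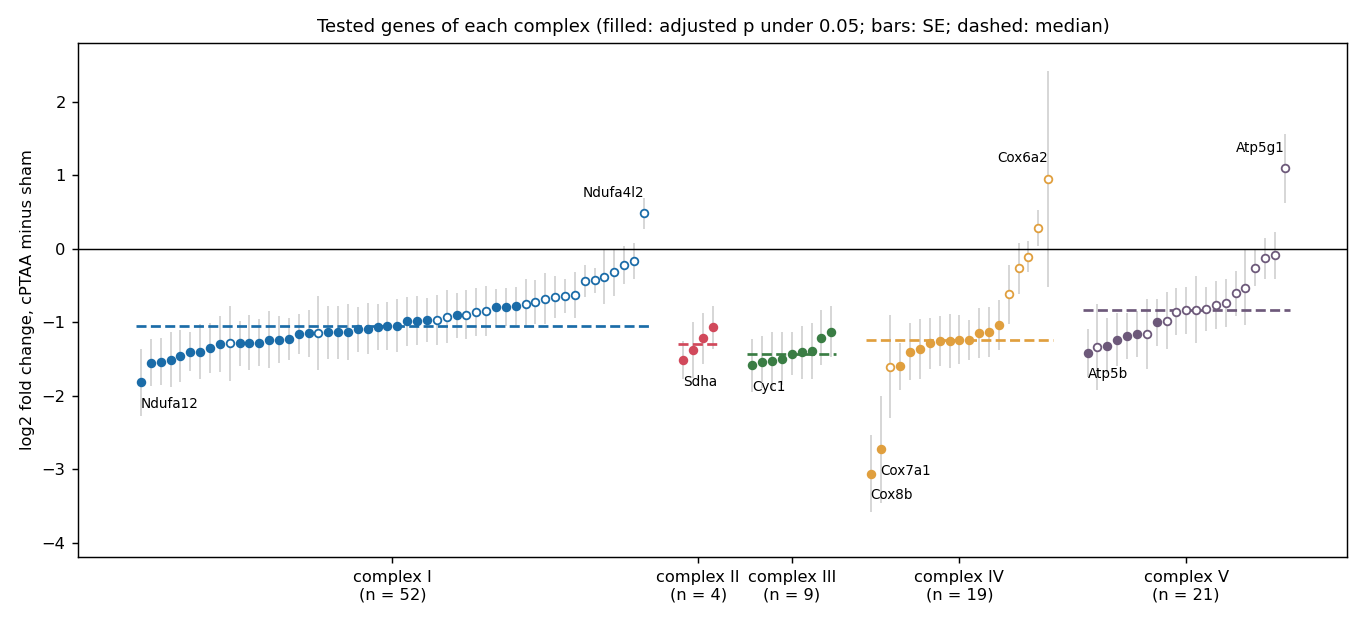
Log2 fold change (cPTAA minus sham, y axis) of the 105 tested members, sorted within each complex (x axis), with standard error bars, filled points for limma adjusted p under 0.05 and dashed lines at the complex median. Complex III lies between -1.59 and -1.13, while complex IV spreads from -3.06 (Cox8b) to 0.95 (Cox6a2) and Atp5g1 stands at 1.09 in complex V.

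In mean level the groups overlapped in each complex through cPTAA 9 alone. The other cPTAA libraries lay below every sham library, though narrowly for complex I (9.81 in cPTAA 6 and 9.82 in sham 8). For the same 2 libraries the gap was also narrow in complex V (9.82 and 9.85) and complex IV (9.61 and 9.69). As the mean log2 level of the tested genes, complex I was at 9.33 ± 0.73 in cPTAA and 10.30 ± 0.34 in sham, and complex III at 11.03 ± 0.85 in cPTAA and 12.45 ± 0.41 in sham (SD, n = 7 and 5). The differences of these means were -0.97 for complex I, -1.30 for complex II, -1.42 for complex III, -1.11 for complex IV and -0.78 for complex V. Library cPTAA 9 was the highest of its group for 101 of the 105 members and lay within or above the sham range in each complex. Library cPTAA 12 was the lowest of its group for 96 members, and sham 8 the lowest of its group for 90. The cPTAA libraries lay below all sham libraries for 1 member, Cox8b, while 4.95% of all tested genes did so, and above all of them for 0 members, while 8.02% of all genes did so. Without cPTAA 9 the remaining cPTAA libraries lay below all sham libraries for 57 members and for 8.19% of all genes, and 86 members were called lower, where 13.3% of all genes were. As cPTAA 9 was the highest of its group for most members, more separation and more calls without it follow from that choice.

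**Figure D2:**
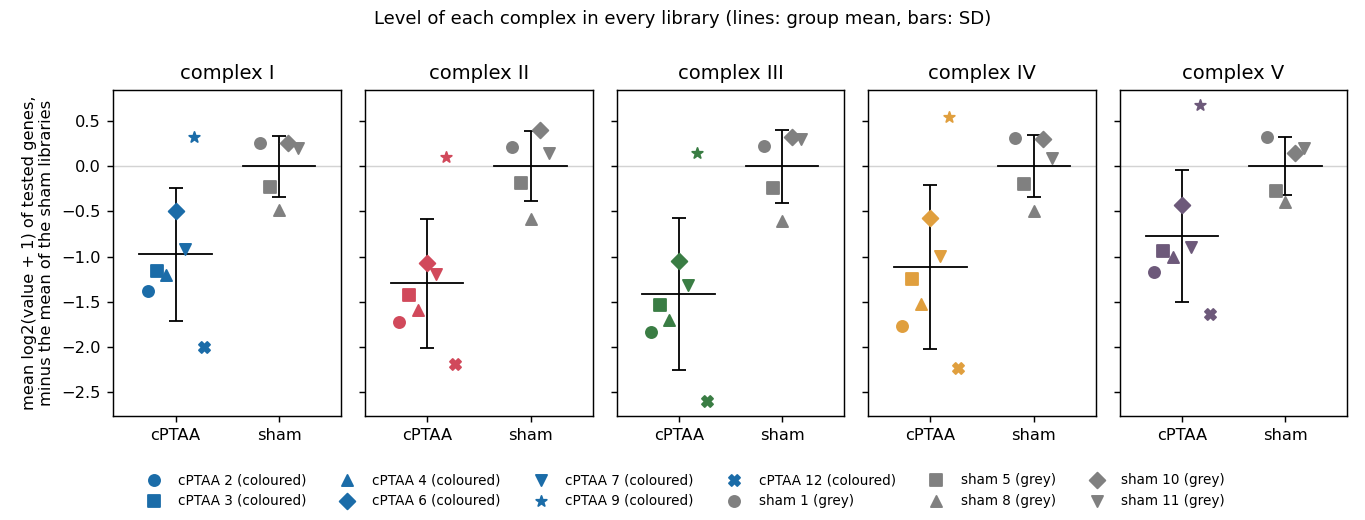
Mean log2(normalised read count + 1) of the tested genes of each complex, minus the mean of the sham libraries (y axis), for the 7 cPTAA libraries (left, coloured) and the 5 sham libraries (right, grey), with group means and SD bars. In each complex cPTAA 9 sits inside or above the sham values and cPTAA 12 is the lowest library.

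Marker genes of other cells were set beside the members. Of 11 brown adipocyte markers, 9 were lower in cPTAA, where 11.1% of all tested genes were. The sum of the 11 ran from 4174 to 46238 normalised reads in cPTAA and from 37108 to 111150 in sham. None of the 11 was at 0 in every library, although Zic1 averaged 1.62 in cPTAA and 1.69 in sham. Ucp1, the uncoupling protein of brown fat, had a lowest value of 105, a median of 8070 and a highest of 28872 in cPTAA, against 53221, 33854, 16682, 63200 and 61323 in sham (log2 fold change -3.00 ± 1.02, adjusted p = 0.0452). The highest cPTAA value of Ucp1 was again in cPTAA 9 and the lowest in cPTAA 12. Over the 11 markers, cPTAA 9 was the highest of its group for 6 and cPTAA 12 the lowest for 7. The mean log2 level of the 11 markers was 8.68 ± 0.79 in cPTAA and 10.47 ± 0.52 in sham (SD, n = 7 and 5), and its 2 groups did not overlap. With that level as a covariate limma called 0 members lower and 0 higher, 2 members had an unadjusted p under 0.05, the median log2 fold change of the members was 0.12, and the median standard error was 0.43, against 0.33 without it. In that fit 0.962% of all genes were called lower and 2.26% higher, and 4434 of the 21415 had an unadjusted p under 0.05. Because the groups did not overlap in that level, the fit cannot tell group and marker level apart. In bulk tissue fewer cells of a type and less RNA per cell cannot be told apart, here or in any result below.

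Heart muscle genes were seen in both groups, and their mean level was highest in cPTAA 9, 7 and 6. The sum of 12 cardiomyocyte markers ran from 1638 to 178823 in cPTAA and from 2001 to 7896 in sham, with none at 0 in every library. None of the 12 was called by limma, with 2 at an unadjusted p under 0.05, while edgeR called 1 higher and DESeq2 called 1 lower and 3 higher. Myh6, the main myosin heavy chain of the adult mouse heart, stood at 43557 in cPTAA 9, 10200 in cPTAA 7 and 5784 in cPTAA 6. It was at 13.7 to 323 in the other cPTAA libraries and at 235, 2347, 1387, 1511 and 186 in sham. With the mean log2 level of the 12 as a covariate, 83 members were lower and 1, Atp5g1, was higher, where 13.2% and 14.7% of all genes were called. Without cPTAA 6, 7 and 9 and sham 8, 96 members were lower (15.6% of all genes were), with a median log2 fold change of -1.73. Those are the 3 cPTAA libraries with the highest and the sham library with the lowest mean level of the members, so a larger fall without them follows from their choice. White adipocyte markers were lower for 7 of 10 genes, smooth muscle markers for 5 of 10 and endothelial markers for 3 of 5, while macrophage markers were higher for 7 of 9 and fibroblast markers for 4 of 7. By the same limma fit 11.1% of all tested genes were lower and 12.9% higher. Of 8 skeletal muscle markers 6 were tested, and limma called 0 (0 at an unadjusted p under 0.05), edgeR 0 and DESeq2 1 higher. The smooth muscle genes that define the aortic wall were present in both groups, with sums of 69536 to 270159 in cPTAA and 220363 to 299424 in sham. The part of these cell types in the results was not tested.

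Complex I takes electrons from NADH through a peripheral arm. The 3 nuclear genes of its NADH-oxidising module and the 4 of its ubiquinone-reducing module all fell, with median log2 fold changes of -1.40 and -1.18. Ndufv1, which carries the flavin that accepts electrons from NADH, had a lowest value of 1449, a median of 2247 and a highest of 7329 normalised reads in cPTAA, against 9445, 6873, 5131, 10292 and 7862 in sham. Its log2 fold change was -1.54 ± 0.32 (adjusted p = 0.00278). Only cPTAA 9 reached the sham range, where the other 6 cPTAA libraries did not exceed 3106. Ndufs1, the large iron-sulphur subunit, fell by 1.40 ± 0.27 on the log2 scale (adjusted p = 0.00148), and Ndufv2, a further iron-sulphur subunit, by 1.09 ± 0.35 (adjusted p = 0.0367). In the ubiquinone module, Ndufs3, Ndufs7 and Ndufs8 had log2 fold changes of -1.29, -1.14 and -1.05. Ndufv2 and Ndufs7 were not called by edgeR or DESeq2, and Ndufs8 was not called by edgeR.

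Of the 30 accessory subunits of complex I, which surround the catalytic core, 21 fell and 30 were below 0 (median -1.06). Among them edgeR called 11 lower and DESeq2 16. Ndufa10 was at 895 in the lowest, 1647 in the median and 4916 in the highest cPTAA library, against 6530, 5073, 3488, 7011 and 5613 in sham (log2 fold change -1.55 ± 0.32, adjusted p = 0.00259). The largest difference was that of Ndufa12, a small subunit of the peripheral arm, at 132, 377 and 1246 for the lowest, median and highest cPTAA library, against 1684, 535, 1296, 1476 and 2502 in sham (log2 fold change -1.82 ± 0.46, adjusted p = 0.00955). Its values are uncertain, because the copy named Ndufa12-ps took from 48.0 to 67.3% of the reads of the pair in cPTAA and from 17.8 to 61.5% in sham. The sum of gene and copy differed by -1.27 on the log2 scale. Ndufab1, the mitochondrial acyl carrier protein, fell by 1.46 ± 0.35 with an adjusted p of 0.00661, and Ndufb8 fell by 1.51 ± 0.37 with an adjusted p of 0.00807. The 9 accessory genes that were not called had adjusted p from 0.0641 (Ndufs4) to 0.518 (Ndufa11).

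The 8 Ndufaf assembly factors, which help to build complex I but are not part of it, had a median log2 fold change of -0.54, and 2 fell. These were Ndufaf4 (log2 fold change -0.79 ± 0.26, adjusted p = 0.0379) and Ndufaf1 (-0.78 ± 0.26, adjusted p = 0.0385), of which edgeR did not call Ndufaf1. The others ran from -0.68 (Ndufaf6) to -0.17 (Ndufaf3). Among all tested genes 11.1% fell. Of 3 pseudogene-named and 3 copied complex I genes, 5 were tested and 1, Ndufab1-ps, fell (-1.40 ± 0.37, adjusted p = 0.0119). Ndufa4 carries a complex I name but its protein is found with complex IV, and it is described with the isoforms.

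Complex II, the succinate dehydrogenase of the citric acid cycle, has nuclear genes only. All 4 fell. Sdha, the flavoprotein that oxidises succinate, had a lowest value of 4495, a median of 6496 and a highest of 13893 in cPTAA, against 24617, 20244, 12577, 28217 and 18398 in sham. The log2 fold change was -1.52 ± 0.26 (adjusted p = 0.000718), and 6 of 7 cPTAA libraries lay below every sham library. Sdhb, the iron-sulphur subunit, was at 1513, 2509 and 9990 for the lowest, median and highest cPTAA library, against 8393, 6285, 4921, 9781 and 9562 in sham (-1.38 ± 0.38, adjusted p = 0.0148). Here cPTAA 9 was above the sham libraries and the next highest, cPTAA 6, stood at 3641. The membrane anchors Sdhc and Sdhd fell by 1.07 ± 0.29 and 1.22 ± 0.35 on the log2 scale (adjusted p = 0.0136 and 0.0202), and edgeR did not call Sdhd.

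Complex III moves electrons from ubiquinol to cytochrome c. Its 4 catalytic and core genes had a median log2 fold change of -1.54 and its 5 small subunits one of -1.39, and all 9 fell. Cyc1, the cytochrome c1 that reduces cytochrome c, was at 1602 in the lowest, 3265 in the median and 11005 in the highest cPTAA library, against 11615, 8704, 7191, 13472 and 13387 in sham (log2 fold change -1.59 ± 0.36, adjusted p = 0.00508). Uqcrc1, a core protein, was at 1728, 2785 and 10468 for the lowest, median and highest cPTAA library, against 11477, 8557, 6601, 12602 and 11746 in sham (-1.54 ± 0.35, adjusted p = 0.00458). In both genes cPTAA 9 lay among the sham values and the other 6 cPTAA libraries lay below all of them. Uqcrfs1, the Rieske iron-sulphur protein, fell by 1.53 ± 0.40 and Uqcrc2, the other core protein, by 1.43 ± 0.29 on the log2 scale (adjusted p = 0.0115 and 0.00253). The small subunits ran from -1.50 (Uqcr11) to -1.13 (Uqcrh), and edgeR did not call Uqcrb or Uqcrh.

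Complex IV, cytochrome c oxidase, held both the largest falls and genes that were not lower. All 10 of its ubiquitous nuclear subunits fell, with a median of -1.25 and a range from -1.60 (Cox6a1) to -1.04 (Cox7a2). Of these, edgeR called 6 lower and DESeq2 9. Cox6a1 was at 2760 in the lowest, 5676 in the median and 13900 in the highest cPTAA library, against 24236, 17227, 12044, 22162 and 21741 in sham (log2 fold change -1.60 ± 0.32, adjusted p = 0.00211). Per kilobase of exon it had the highest level of the 99 members with a known exon length in sham, at 9900 ± 5090 normalised reads per kilobase in cPTAA and 27800 ± 6950 in sham (SD, n = 7 and 5). Cox4i1, a large ubiquitous subunit, was at 3860, 6610 and 20692 for the lowest, median and highest cPTAA library, against 21365, 14141, 11132, 19812 and 18305 in sham (-1.13 ± 0.34, adjusted p = 0.0256). Its call was lost with edgeR (-0.98) and without cPTAA 2 (-1.06), sham 1 (-1.03), sham 10 (-1.06) or sham 11 (-1.09), and that of Cox7a2 with edgeR, with DESeq2 and without any 1 of 9 libraries, cPTAA 6 and 9 and sham 8 excepted. Cox7a2l, a subunit-like factor linked to supercomplexes of complexes III and IV, was at 2055, 2485 and 4724 for the lowest, median and highest cPTAA library, against 3355, 2798, 2744, 3349 and 2785 in sham, and did not pass (-0.11 ± 0.21, adjusted p = 0.752). Of its cPTAA libraries 5 lay below and 2 (cPTAA 6 and 9) above the sham values. Of the pseudogene-named complex IV genes Cox5b-ps fell (-1.40 ± 0.39, adjusted p = 0.0174) and Cox7c-ps1 did not pass (-0.62 ± 0.40), nor did the copied gene Cox6c2, which averaged 4.39 in cPTAA and 12.8 in sham.

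Several subunits of complex IV have a second, tissue-restricted gene, and of 5 such genes tested 2 fell. Cox8b, the isoform that mice use in heart, skeletal muscle and brown fat, had a lowest value of 150, a median of 692 and a highest of 2923 in cPTAA, against 9195, 4617, 2990, 6988 and 6906 in sham. Every cPTAA library lay below every sham library, narrowly so for cPTAA 9 and sham 8. The log2 fold change was -3.06 ± 0.52 (adjusted p = 0.000638), the largest fall among the members. Its level per kilobase of exon was 2630 ± 2530 in cPTAA and 17100 ± 6640 in sham, against 6560 ± 2960 in cPTAA and 14700 ± 3380 in sham for the ubiquitous Cox8a (SD, n = 7 and 5). Cox7a1, used in the same tissues, was at 29.5, 259 and 2049 for the lowest, median and highest cPTAA library, against 2367, 1233, 827, 2258 and 2040 in sham (-2.73 ± 0.73, adjusted p = 0.0129). It did not pass with edgeR (adjusted p = 0.0705) or DESeq2 (0.0706), and over all alternatives its adjusted p ran from 0.000127 to 0.785. Here cPTAA 9 lay among the sham values and the other 6 were at most 394.

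Cox6a2, the heart and skeletal muscle isoform of subunit VIa, was highest in the 3 libraries with the highest mean level of the cardiomyocyte markers. It stood at 5288 in cPTAA 9, 660 in cPTAA 6 and 552 in cPTAA 7, between 6.90 and 19.8 in the other 4 cPTAA libraries, and at 15.8, 150, 85.6, 91.2 and 12.8 in sham. These 3 libraries are also those with the most Myh6. Of the cardiomyocyte markers, Myl4, Myl7 and Nppa were highest in a sham library and the others in cPTAA 9. The skeletal muscle markers Acta1 and Ckm were highest in the same 3 libraries as Cox6a2, while the other skeletal muscle markers were not. The difference did not pass (0.95 ± 1.47, adjusted p = 0.688), turned to -0.02 without cPTAA 9, and was called higher by DESeq2 (adjusted p = 0.0300, with a range of 0.0300 to 0.993 over the alternatives). Cox4i2, the isoform of lung, and Cox6b2, the isoform of testis, were low, at 56.6 ± 38.2 and 65.2 ± 14.5 in cPTAA and 60.8 ± 13.4 and 55.0 ± 20.9 in sham (SD, n = 7 and 5), and neither was called. The testis isoform Cox7b2 had at most 1.85 normalised reads in a cPTAA library and averaged 0.584 in sham.

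**Figure D3:**
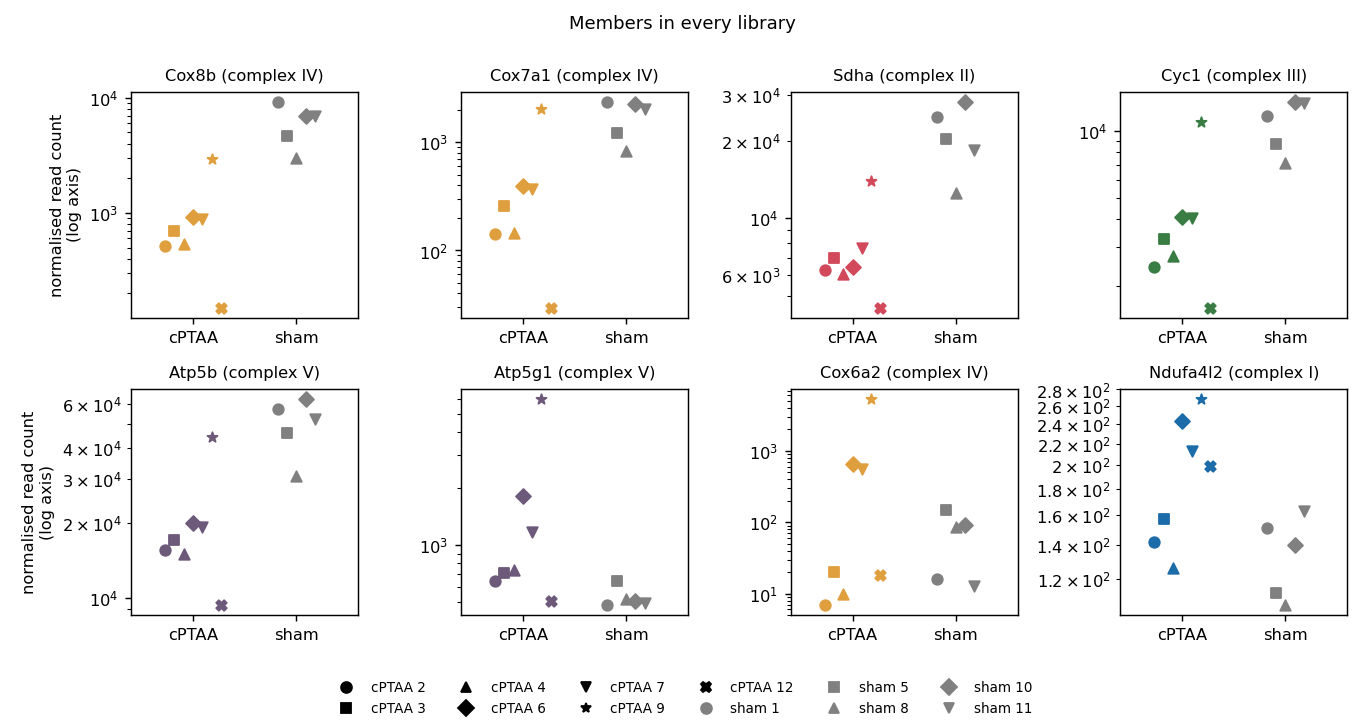
Normalised read count (y axes, log scale) of 8 members in the 7 cPTAA libraries (left, coloured) and the 5 sham libraries (right, grey), each library with its own symbol. Cox8b separates the groups, Sdha, Cyc1 and Atp5b do so except for cPTAA 9, and Cox6a2 and Atp5g1 are highest in cPTAA 9, 6 and 7.

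The upstream sequences of 3 of these genes are given because Cox8b and Cox7a1 had the 2 largest falls of all members while Cox6a1 had the largest fall of a ubiquitous complex IV gene. Each is the 250 bases before the gene's start in RefSeq (GRCm38.p6), 5′ to 3′ on the strand of the gene. Capitals mark matches, on either strand, to the letters GCGCATGCG (bound by NRF1, nuclear respiratory factor 1) or CCGGAAG (bound by ETS factors such as GABP). These coordinates are of another build than the GRCm39 named in the processing notes. Cox8b lies at chr7:140900447-140900696 on the minus strand, Cox7a1 at chr7:30183921-30184170 on the plus strand and Cox6a1 at chr5:115348959-115349208 on the minus strand.
Cox8b: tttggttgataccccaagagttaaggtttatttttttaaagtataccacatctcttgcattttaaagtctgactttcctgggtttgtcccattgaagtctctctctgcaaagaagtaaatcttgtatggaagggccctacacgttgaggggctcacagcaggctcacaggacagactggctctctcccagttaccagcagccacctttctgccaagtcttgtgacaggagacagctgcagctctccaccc
Cox7a1: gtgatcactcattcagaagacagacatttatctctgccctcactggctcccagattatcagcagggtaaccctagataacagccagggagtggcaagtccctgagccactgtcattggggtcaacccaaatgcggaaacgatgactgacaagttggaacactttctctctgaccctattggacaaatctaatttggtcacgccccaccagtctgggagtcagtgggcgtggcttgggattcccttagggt
Cox6a1: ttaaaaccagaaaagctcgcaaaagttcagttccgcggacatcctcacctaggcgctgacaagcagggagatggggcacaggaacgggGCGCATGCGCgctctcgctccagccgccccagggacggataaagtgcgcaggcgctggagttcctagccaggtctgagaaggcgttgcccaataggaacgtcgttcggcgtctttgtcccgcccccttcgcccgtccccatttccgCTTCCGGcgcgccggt
The Cox6a1 window holds an NRF1 match at position -162 and an ETS match at -16 from the start, and the Cox8b and Cox7a1 windows hold none.

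The level of each restricted isoform was set against its ubiquitous partner in the same library, as a log2 ratio, for 6 of 7 pairs in which both genes were tested. Differences were tested by an exact two-sided permutation over the 12 libraries (smallest p it can give 0.00253), adjusted over the 6 pairs. Cox8b over Cox8a averaged -2.46 ± 0.73 in cPTAA and -0.64 ± 0.27 in sham (SD, n = 7 and 5; difference -1.82, exact p = 0.00253, adjusted p = 0.00758), with every cPTAA library lower. Cox7a1 over Cox7a2 averaged -2.68 ± 1.08 in cPTAA and -0.98 ± 0.35 in sham (difference -1.70, exact p = 0.00505, adjusted p = 0.00758). In both pairs the isoform of heart, muscle and brown fat was thus lower in cPTAA by more than its ubiquitous partner.

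In 3 other pairs the ratio was higher in cPTAA, and in each of them the ubiquitous partner fell while the restricted gene was not called. Ndufa4l2, a paralogue known as a target of hypoxia-inducible factors, was at 126 in the lowest, 199 in the median and 268 in the highest cPTAA library, against 151, 113, 107, 140 and 163 in sham (log2 fold change 0.48 ± 0.21, adjusted p = 0.113). It passed only when values were scaled to library totals (0.60, adjusted p = 0.0352, with a range of 0.0352 to 0.653 over the alternatives). Ndufa4 was at 978, 2005 and 5924 for the lowest, median and highest cPTAA library, against 7015, 4278, 3685, 6556 and 6534 in sham (-1.35 ± 0.34, adjusted p = 0.0104). The ratio of Ndufa4l2 over Ndufa4 averaged -3.51 ± 0.66 in cPTAA and -5.34 ± 0.19 in sham (difference 1.83, exact p = 0.00253, adjusted p = 0.00758), with every cPTAA library higher. Cox4i2 over Cox4i1 averaged -7.23 ± 0.44 in cPTAA and -8.09 ± 0.31 in sham (difference 0.86, exact p = 0.00505, adjusted p = 0.00758). Cox6b2 over Cox6b1 averaged -5.27 ± 0.96 in cPTAA and -6.80 ± 0.52 in sham (difference 1.54, exact p = 0.0126, adjusted p = 0.0152). Cox6a2 over Cox6a1 did not pass, at -6.05 ± 3.13 in cPTAA and -8.60 ± 1.83 in sham (difference 2.55, exact p = 0.146, adjusted p = 0.146).

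**Figure D4:**
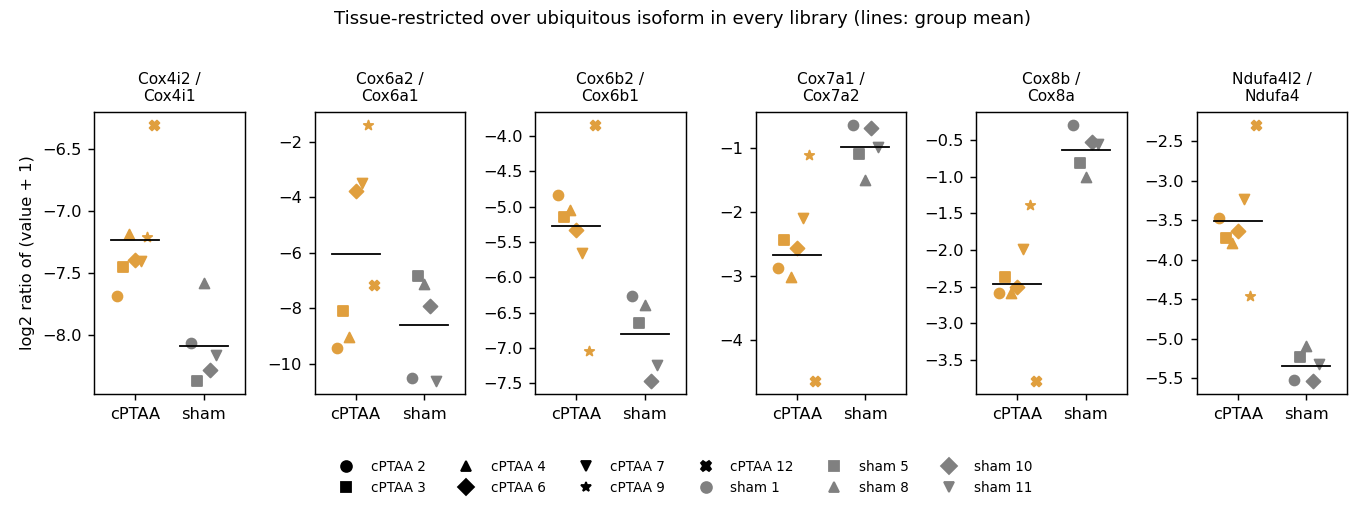
Log2 ratio of the restricted over the ubiquitous isoform (y axes) in the 7 cPTAA libraries (left, coloured) and the 5 sham libraries (right, grey) for 6 pairs, with group means as lines. Cox8b over Cox8a (means -2.46 in cPTAA and -0.64 in sham) and Ndufa4l2 over Ndufa4 (-3.51 in cPTAA and -5.34 in sham) separate the groups, in opposite directions.

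Complex V makes ATP on its F1 head, driven by a ring of c subunits in the membrane. In the head and central stalk 3 of 5 genes fell, and the median log2 fold change was -1.16. Atp5b, the catalytic beta subunit, was at 9351 in the lowest, 17038 in the median and 44462 in the highest cPTAA library, against 57600, 45797, 30744, 62808 and 52112 in sham (log2 fold change -1.42 ± 0.33, adjusted p = 0.0057). Apart from cPTAA 9, the cPTAA libraries were at most 20004, below every sham library. Atp5a1, the alpha subunit, fell by 1.19 ± 0.31 and Atp5d, the delta subunit, by 1.16 ± 0.31 on the log2 scale (adjusted p = 0.011 and 0.0137). Atp5c1 and Atp5e, the gamma and epsilon subunits, had log2 fold changes of -0.61 and -0.86 and did not pass (adjusted p = 0.173 and 0.0627).

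Of the 5 small membrane subunits 3 fell: Atp5k (subunit e), Atp5j2 (subunit f) and Atp5md, with log2 fold changes of -1.32 ± 0.38, -1.24 ± 0.36 and -1.0 ± 0.32, and edgeR did not call Atp5md. Atp5k was at 140 in the lowest, 482 in the median and 1163 in the highest cPTAA library, against 1859, 1035, 680, 1296 and 1300 in sham (adjusted p = 0.0208). The values of 5 of the 7 cPTAA libraries lay between 471 and 551, with cPTAA 12 far below and cPTAA 9 among the sham values. The call was lost without sham 1 (-1.16), sham 10 (-1.29) or sham 11 (-1.28). Its upstream window, chr5:108434400-108434649 on the minus strand, is shown as that of a fallen complex V gene with an NRF1 match, in capitals at position -50.
Atp5k: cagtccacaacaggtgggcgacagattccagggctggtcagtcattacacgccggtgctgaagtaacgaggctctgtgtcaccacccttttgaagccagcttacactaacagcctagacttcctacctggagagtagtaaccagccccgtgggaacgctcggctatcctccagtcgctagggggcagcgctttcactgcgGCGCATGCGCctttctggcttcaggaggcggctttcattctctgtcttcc
None of the 4 peripheral stalk genes, which hold the head still against the ring, was called by limma, edgeR or DESeq2 with all 12 libraries. By limma 3 were lower at an unadjusted p under 0.05, with a median of -0.76 and a range from -0.98 (Atp5o) to -0.13 (Atp5j). Without cPTAA 9, a choice that favours a fall, limma called 3 of the 4 lower. Of 5 pseudogene-named genes 4 were tested, and limma, edgeR and DESeq2 called 0, with 2 lower at an unadjusted p under 0.05.

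The 3 genes for subunit c, which encode the same mature protein, were not called lower with all 12 libraries. Atp5g1 was at 502 in the lowest, 733 in the median and 5957 in the highest cPTAA library, against 479, 646, 519, 502 and 491 in sham (log2 fold change 1.09 ± 0.47, adjusted p = 0.113). The high values were in cPTAA 9 (5957), cPTAA 6 (1825) and cPTAA 7 (1169), and the other 4 were at most 733. These are the same 3 libraries as for Cox6a2 and Myh6. They are also the cPTAA libraries with the highest mean log2 level of all members (10.96, 9.99 and 9.59). The order is thus not particular to heart genes, and Cox4i1 shared it (20692, 10891 and 7367). It was called higher by edgeR (1.63, adjusted p = 0.0467), by DESeq2 (1.64, adjusted p = 0.0276) and with the cardiomyocyte level as a covariate (0.89, adjusted p = 0.0288), and over all alternatives its adjusted p ran from 0.0276 to 0.189. Without cPTAA 6, 7 and 9 and sham 8 its log2 fold change was 0.28. Atp5g2 averaged 1827 ± 845 in cPTAA and 2049 ± 333 in sham, and Atp5g3 3233 ± 2319 in cPTAA and 2949 ± 325 in sham (SD, n = 7 and 5), with log2 fold changes of -0.26 ± 0.25 and -0.09 ± 0.32 (adjusted p = 0.491 and 0.877). Without cPTAA 6, 7 and 9 and sham 8, a choice that favours a fall, limma called both lower (-0.66 and -0.61, adjusted p = 0.00613 and 0.0105).

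**Figure D5:**
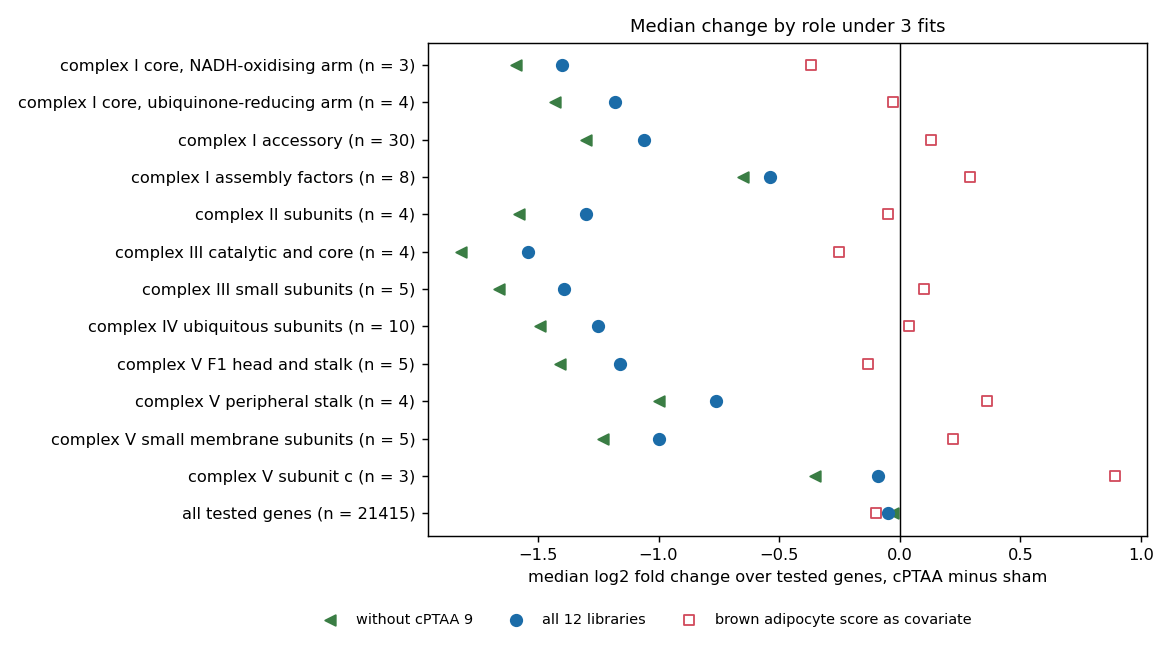
Median log2 fold change (x axis, cPTAA minus sham) of the tested genes in 12 roles and of all tested genes (y axis; isoforms, the supercomplex factor, gene copies and pseudogene-named genes are not drawn), from all 12 libraries (circles), without cPTAA 9 (triangles) and with the brown adipocyte level as a covariate (open squares). The roles drawn run from -1.54 (complex III core) to -0.09 (subunit c) with all 12 libraries, and from -0.37 (the NADH-oxidising arm of complex I) to 0.89 (subunit c) with the covariate. Leaving out cPTAA 9, the highest cPTAA library for most members, favours a fall.

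Genes around the chain were set beside it. Among all tested genes 11.1% fell, and 4.95% were lower without overlap of the groups. The 13 protein-coding genes of the mitochondrial genome had a median log2 fold change of -1.65, and 10 fell. All mitochondrial genes took from 3.23 to 15.2% of reads in cPTAA and from 10.8 to 16.9% in sham. Cycs, the mobile carrier cytochrome c, fell to 2706 ± 2217 in cPTAA, against 5924 ± 1750 in sham (SD, n = 7 and 5; log2 fold change -1.39 ± 0.41, adjusted p = 0.024), and 9 of 14 genes of cytochrome c and coenzyme Q synthesis fell, among them Coq8a (-1.89 ± 0.35, adjusted p = 0.00125) and Coq6 (-1.50 ± 0.31, adjusted p = 0.00235). Of the assembly factors other than Ndufaf genes, 5 of 9 fell for complex I, 0 of 4 for complex II, 2 of 6 for complex III, 8 of 20 for complex IV and 2 of 4 for complex V, with medians of -0.64, -0.24, -0.61, -0.53 and -0.98. For complex II factors 1 gene had an unadjusted p under 0.05, and edgeR and DESeq2 called 0. The copper chaperone Cox17 was at 31.4, 67.6 and 103 for the lowest, median and highest cPTAA library, against 192, 152, 123, 175 and 192 in sham (-1.32 ± 0.26, adjusted p = 0.00157), without overlap. Outer membrane and protein import genes, mitochondrial but outside the chain, fell for 5 of 19 (median -0.52). With the brown adipocyte level as a covariate limma called 0 genes of the mitochondrial genome, coenzyme Q, import and assembly factor lists, and the medians of the first 3 were -0.29, -0.01 and 0.32. In that fit 1, 0 and 2 genes of these 3 lists and 4 assembly factors had an unadjusted p under 0.05. Of all 21415 tested genes 4434 did. Cycs was not called by edgeR (adjusted p = 0.062, with a range of 0.000299 to 0.674 over the alternatives).

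Regulators of mitochondrial genes were lower for 8 of 15, where 11.1% of all tested genes were, and 4.95% were lower without overlap of the groups. Ppargc1a, the coactivator PGC-1alpha, was at 62.8 in the lowest, 110 in the median and 307 in the highest cPTAA library, against 858, 675, 462, 842 and 689 in sham, with no overlap (log2 fold change -2.49 ± 0.32, adjusted p = 6.55e-05). Its relative Ppargc1b and the fatty acid receptor Ppara fell, with log2 fold changes of -2.85 ± 0.30 and -3.31 ± 0.30 (adjusted p = 1.51e-05 and 5.38e-06). Esrra, the oestrogen-related receptor that PGC-1alpha coactivates, was at 344, 492 and 1117 for the lowest, median and highest cPTAA library, against 1159, 1029, 1362, 1949 and 2618 in sham (-1.45 ± 0.28, adjusted p = 0.00166). Nrf1 averaged 419 ± 34.6 in cPTAA and 385 ± 16.1 in sham (SD, n = 7 and 5), a log2 fold change of 0.12 ± 0.11 that did not pass (adjusted p = 0.47). Tfam, which packs the mitochondrial genome and helps its transcription, did not pass either (-0.33 ± 0.16, adjusted p = 0.15). Pprc1, the third coactivator of the PGC-1 family, was not called (0.28 ± 0.18, adjusted p = 0.281). Tfb2m and Polrmt, which transcribe the mitochondrial genome, and Twnk, its helicase, fell, with log2 fold changes of -1.01 ± 0.19, -0.76 ± 0.21 and -1.05 ± 0.20 (adjusted p = 0.00122, 0.0182 and 0.00169). With the brown adipocyte level as a covariate the regulators called lower were Ppargc1b (-2.45, adjusted p = 0.0213) and Ppara (-2.50, adjusted p = 0.0108), the highest adjusted p of each over the alternatives. In that fit Ppargc1a (-1.20, adjusted p = 0.0869, range 1.21e-10 to 0.0869) and Esrra (-0.89, adjusted p = 0.283, range 2.81e-05 to 0.283) did not pass.

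Motif letters were counted in the 250 bases upstream of the members. Windows were found for 77 members (82 windows) and compared with 32851 windows of all genes, on both strands. The NRF1 letters GCGCATGCG were in 7 member windows (8.54%), against 1.45% of all windows. These were Atp5g2, Atp5k, Atp5l, Cox6a1, Ndufa11, Ndufa8 and Ndufaf4, of which 3 fell (Atp5k, Cox6a1 and Ndufaf4). The ETS letters CCGGAAG were in 14 member windows (17.1%), against 6.91%. The letters TNAAGGTCA of oestrogen-related receptors were in 2 (2.44%), against 1.14%, and AAGATGGCG, read by YY1, in 1 (1.22%), against 0.606%. A match is a description of the letters, and most members held none of the NRF1 letters in this window.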

How the data were processed

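Libraries were made, per the labels' protocols, by oligo-dT capture of mRNA, fragmentation and random-hexamer priming. The build GRCm39 and the tools HISAT2 2.0.5, featureCounts 1.5.0-p3 and StringTie are named in the submitters' processing notes. Neither the strand setting nor the scaling is stated in the sources used here, so overlapping and near-identical genes cannot be told apart.

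The deposited signal is whole reads divided by 1 factor per library: 100% of values were whole within 0.02 reads. It was tested with limma 3.58.1 (R 4.3.3, mean-variance trend) on log2(value + 1) for the 21415 genes that 5 or more libraries held at 1 or above, and p-values were adjusted over them by Benjamini-Hochberg (threshold 0.05). Fold changes on this scale understate those of low genes. Errors beside fold changes are SE. Recovered reads were tested with edgeR 4.0.16 and DESeq2 1.42.0. Scripts were tested on simulated data. Members of a complex were assigned by symbol; exon lengths for 99 members are of GENCODE M21. Members, roles, lists and alternatives were chosen with earlier results of these data known. Members given library by library were the 2 largest changes in each direction per complex and the isoform pairs; others named for their role were chosen after their values were seen.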

Additional observations from a re-analysis of the deposited data

Results flagged for a closer look

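In 4 sets of values there was a library that stood apart from the others of its group by Dixon's criterion at the 95% level, which chance gives in about 1 of 20 groups checked; 68 groups were checked and 4 met it. Atp5k was at 140 in cPTAA 12, where the other cPTAA libraries were at 471 or more. Atp5g1 was at 646 in sham 5, where the other sham libraries were at 519 or less. Cox6b2 was at 91.7 in sham 1, where the other sham libraries were at 51.6 or less. The log2 ratio of Cox4i2 over Cox4i1 was -6.30 in cPTAA 12, where the next cPTAA value was -7.18. No cause was tested for these values.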

How the results depend on the processing

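The count of 64 lower members was 41 with edgeR and 0 with the brown adipocyte level as a covariate, and ran from 36 to 86 when 1 library was left out (36 without sham 10 or sham 11, 38 without sham 1, 86 without cPTAA 9). The count of higher members, 0 with limma, was 1 with edgeR, 2 with DESeq2, 1 with scaling to library totals (Ndufa4l2) and 1 with the cardiomyocyte covariate. Lower genes of complex I (32) were 18 with edgeR, 0 with the brown adipocyte covariate, 51 without cPTAA 6, 7 and 9 and sham 8, and 15 to 45 with 1 library left out (18 without cPTAA 2, 3 or 4, 16 without sham 1, 15 without sham 10 or 11). Complex II (4) and complex III (9) were 0 with that covariate. Complex IV (13) was 8 with edgeR, 0 with the covariate and 8 to 14 with 1 library left out (8 without sham 1, 10 or 11). Complex V (6) was 16 with estimated sample weights, 0 with the brown adipocyte and 14 with the cardiomyocyte covariate, 18 without those 4 libraries (the 3 highest cPTAA and the lowest sham), and 3 to 14 with 1 left out (14 without cPTAA 9, 3 without sham 1, 10 or 11). The members' direction was turned by the brown adipocyte covariate for 69 of 105, among them Cox7a1 (0.40), Atp5k (0.40), Cox4i1 (0.02), Cox4i2 (0.09), Cox6b1 (0.03), Cox6b2 (-0.03), Cox7a2 (0.12) and Cox7b (0.04). Cox6a2 turned with sample weights (-0.42), without cPTAA 9 (-0.02, with a range of -0.02 to 1.54 over the left-out libraries) and without the 4 libraries (-1.64). The cause was not tested; the members' median standard error was 0.43 with the brown adipocyte covariate, 0.25 without cPTAA 9 and 0.33 with all 12 libraries. Scaling to library totals put the median of all tested genes at 0.06, against -0.05, and that of the members at -1.01. TMM scaling, totals without haemoglobin and mitochondrial genes, pseudocounts of 0.1 and 10, no filter and a filter of 10 gave 62 to 67 lower members. Adding the reads of a pseudogene-named copy to its gene, chosen after seeing the data, gave 62 lower of 99. The 6 isoform ratios kept their direction and side of the threshold under the scalings, pseudocounts and left-out libraries run; edgeR, DESeq2, weights, covariates and filters were not run for them. Of the 22 named genes' values under alternatives, 524 kept direction and side of the threshold, 32 lost the call, 5 gained one and 11 changed sign. No paired analysis was possible because the 2 groups share no replicate numbers. Depth limits mainly members at a few reads, such as Cox6c2 and Atp5k-ps2.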
